A study of Rattus norvegicus with 40 samples.

Results

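The growth hormone and insulin-like growth factor (IGF) axis was followed through 10 genes: the ligand Igf1, the serum carrier Igfals, the binding proteins Igfbp1, Igfbp2, Igfbp3 and Igfbp4, the receptor Ghr, the transcription factor Stat5b, and the feedback inhibitors Socs2 and Cish. They were chosen by gene symbol from 15209 transcript clusters (the probe groups an array reads as 1 transcript) that carried exactly 1 symbol. Each of the 10 was found as 1 transcript cluster, and each passed the filter on low values that left 10860 clusters to be tested. The study measured livers of Sprague Dawley rats on 40 Rat Gene 1.0 ST arrays, in 3 models of liver growth, to ask what rapamycin, an inhibitor of the kinase mTOR, does to translation. Fetuses of the fetal model received 50 µg of rapamycin each, or the solvent dimethyl sulfoxide (DMSO), on gestational day 19, and their livers were taken 24 h later, on day 20. In the partial hepatectomy model, adult rats of 125 to 150 g were injected with rapamycin (250 µg per 100 g of body weight) or DMSO 1 h before surgical removal of part of the liver, and the remnant was taken 24 h after surgery. In the fasted/refed model, adults of the same weight were fasted for 48 h, given the same dose of rapamycin or DMSO, and fed freely for 3 h from 1 h after the injection. Polysome RNA, from mRNA loaded with several ribosomes, and total RNA were each put on an array of their own, which gave 12 groups, of 4 livers each in fetuses and 3 each in adults. No untreated, unoperated or fed adult liver is among these groups, so every adult value comes from a liver after fasting and refeeding or after surgery. The labels name the arrays of a group biological replicates and also state that polysome preparations were pooled, without saying across what. Each number was therefore read as 1 liver, and p-values measure the spread between these samples.

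Growth hormone from the pituitary binds its receptor (Ghr) on hepatocytes, the kinase Jak2 phosphorylates Stat5b, and Stat5b switches on Igf1, Igfals, Socs2 and Cish, of which Socs2 and Cish then damp the receptor's signal. Most IGF-1 in blood is made by the liver and travels in a complex with IGFBP-3 and the acid-labile subunit encoded by Igfals. Insulin represses Igfbp1, a binding protein that rises in fasting, and IGF-2, not IGF-1, is the main IGF before birth. mTOR acts downstream of the insulin and IGF-1 receptors, which also feed the PI3K and Akt route that holds FoxO transcription factors out of the nucleus.

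Values below are log2 intensities, so that a difference of 1 is a 2-fold difference, and a change is always given as its log2 difference with the standard error (SE) of the fit. A gene passed the test when its adjusted p was under 0.05 in limma, with adjustment over the 10860 clusters. Hepatocyte markers had mean log2 intensities of 12.71 to 13.42 on fetal arrays, 13.45 to 13.81 on hepatectomy arrays and 13.57 to 13.79 on fasted/refed arrays, and all 8 listed hepatocyte genes were on the array. In DMSO total RNA, Tat was lower in fetal than in fasted/refed livers by -5.44 ± 0.747 and Apob by -0.48 ± 0.115. Apoa1 (0.18 ± 0.066) and Ttr (0.17 ± 0.062) were higher, so the lower fetal mean was not shared by all 8. Past the threshold the genes other than Tat differed by 0.48 or less, so the lower mean in total RNA followed mainly Tat. Erythroid markers averaged 11.46 to 12.42 on fetal arrays, against 6.90 to 8.39 on adult arrays. In a bulk sample fewer cells of a type and less RNA per cell cannot be told apart. The fetal livers numbered 1 and 2 stood apart from those numbered 3 and 4 in both treatments on erythroid markers. These averaged 12.31 to 12.42 in livers 1 and 2 and 11.46 to 11.94 in livers 3 and 4. Markers of dividing cells averaged 10.14 to 10.85 in livers 1 and 2 and 9.67 to 10.17 in livers 3 and 4, ranges that just overlap. Among fasted/refed livers, rapamycin liver 2 and DMSO liver 3 scored 18.1 and 38.2 on the first principal component of polysome RNA, which held 58.6% of the variance, and the other 4 livers scored -18.1 to -10.3. In total RNA, whose first component held 43.1%, they did not stand apart together: rapamycin liver 2 scored 20.3, the highest of 3 rapamycin livers that all scored 9.9 or more, and DMSO liver 3 scored -46.6, against -14.5 and 14.8 for the other DMSO livers. The 3 hepatectomy DMSO polysome arrays carry the refeeding time in their labels, and were grouped by their titles, which name hepatectomy. Markers of dividing cells averaged 10.64 to 11.05 on these 3 arrays, against 6.06 to 6.37 on all fasted/refed arrays.

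**Figure D1:**
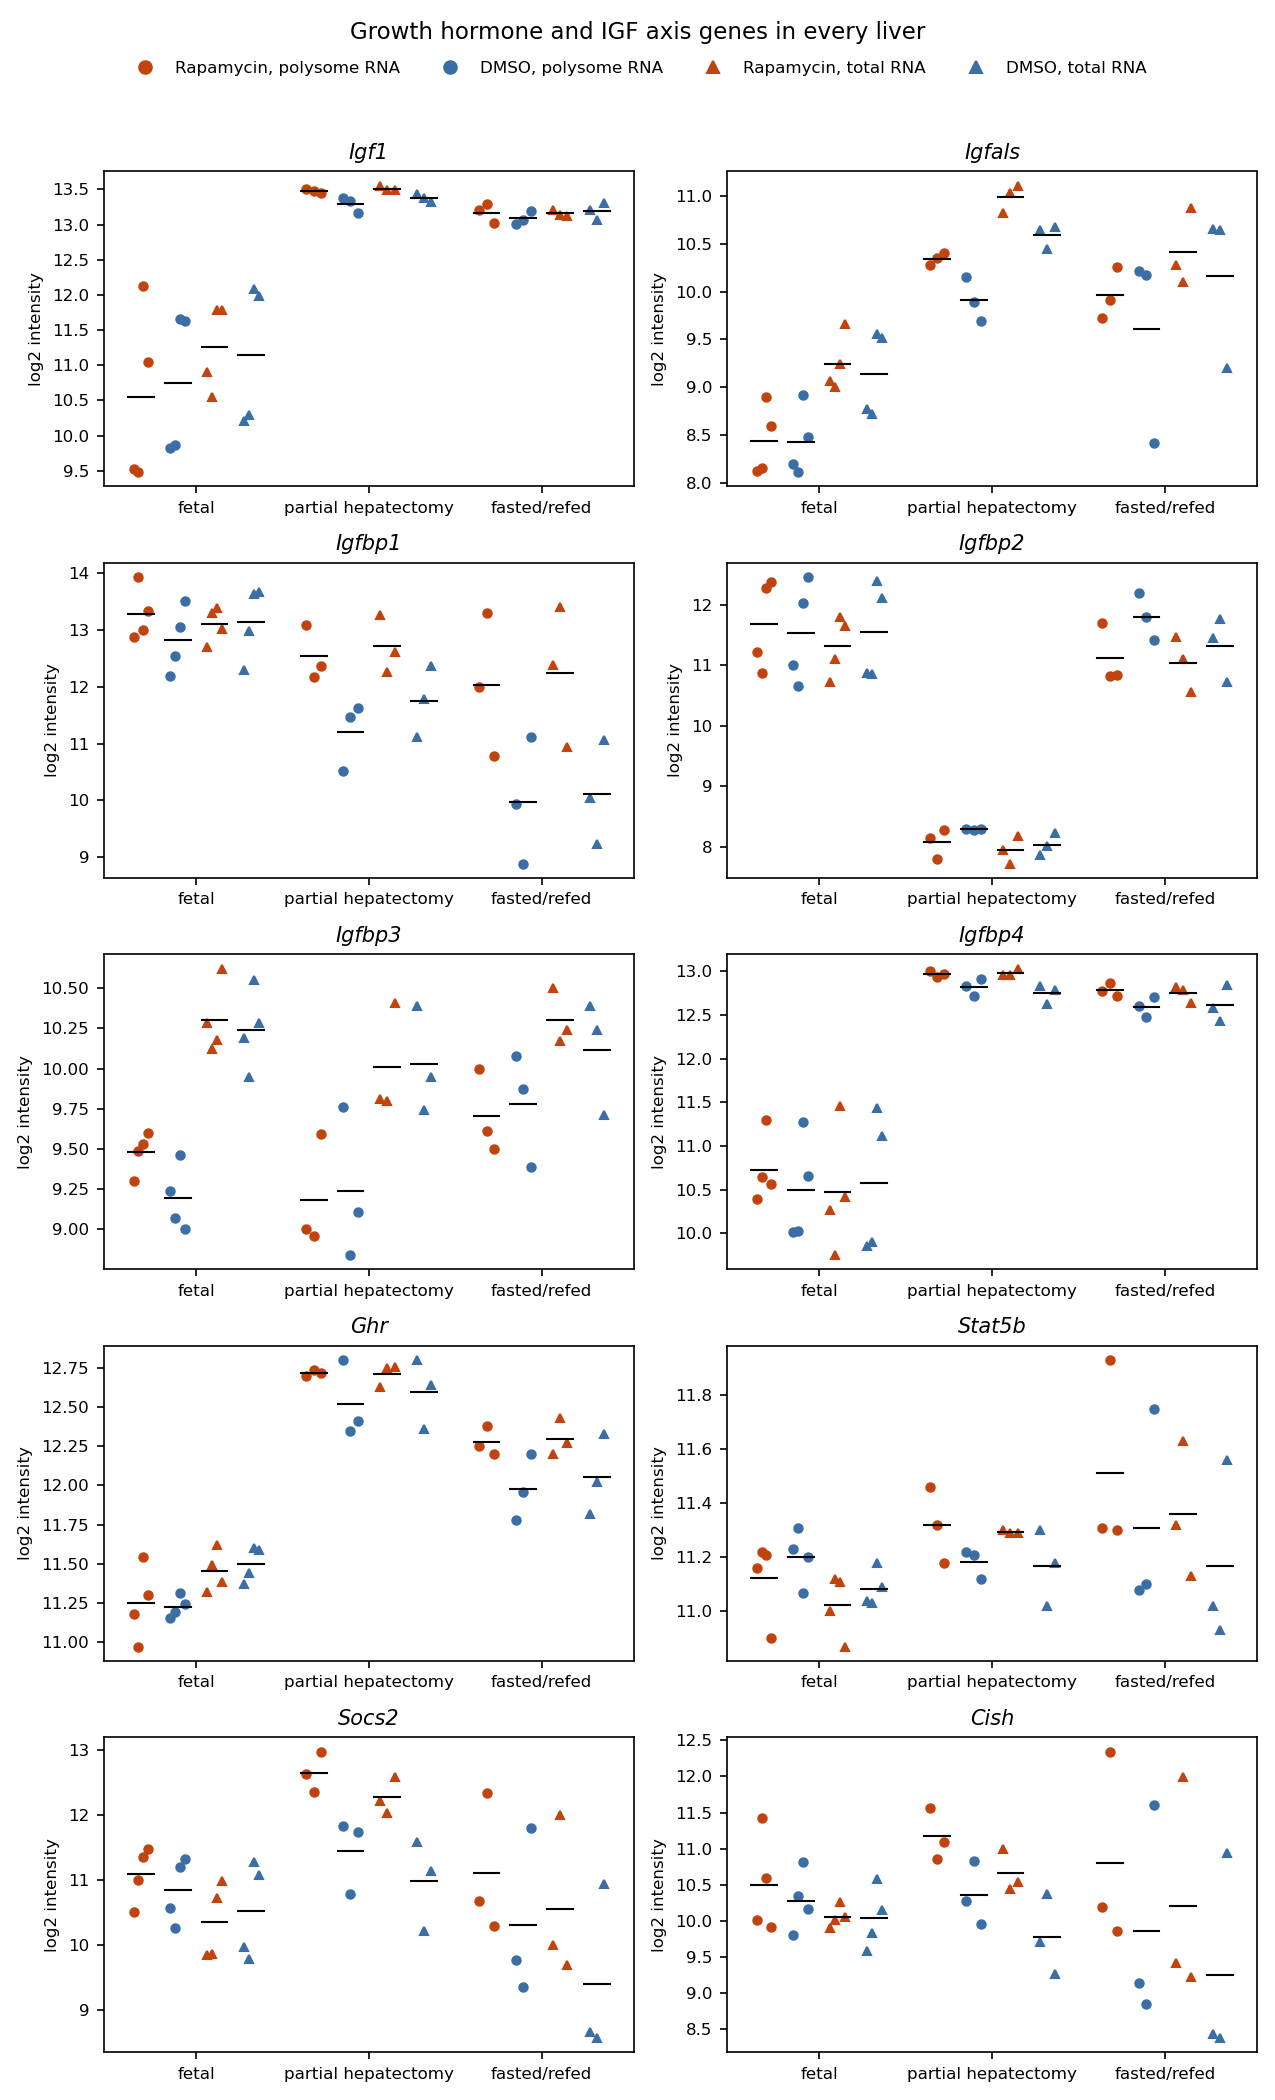
Log2 intensity of each gene (vertical axes, one panel per gene) in every liver of the fetal, partial hepatectomy and fasted/refed models. Circles are polysome RNA and triangles total RNA, orange rapamycin and blue DMSO, and the black line is the group mean; Igf1 and Igfbp4 are lowest in fetal livers, while Igfbp2 lies between 7.72 and 8.30 in all hepatectomy arrays and above 10 elsewhere.

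Igf1 was lower in every fetal liver than in any adult liver. In DMSO total RNA its log2 intensities were 10.20, 10.29, 12.09 and 11.98 in the 4 fetal livers, against 13.43, 13.38 and 13.32 after hepatectomy and 13.21, 13.06 and 13.31 in fasted/refed livers. The fetal values fell into a low pair (livers 1 and 2) and a higher pair (livers 3 and 4), and both pairs lay below every adult liver. Fetal livers were lower than fasted/refed livers by a log2 change of -2.06 ± 0.483 (limma, adjusted p = 0.000695) and lower than hepatectomy livers by -2.23 ± 0.483 (adjusted p = 0.000382). Between hepatectomy and fasted/refed livers Igf1 differed by 0.18 ± 0.517 (limma, adjusted p = 0.854), with ranges apart and an SE that carries the spread of the fetal livers, because all 40 arrays share 1 estimate of it. Over the 12 groups the mean ran from 10.55 ± 1.29 (SD, n = 4) in fetal polysome RNA with rapamycin to 13.51 ± 0.04 (SD, n = 3) in hepatectomy total RNA with rapamycin. In that order only 2 of the 11 neighbouring pairs of groups did not overlap: the step from the highest fetal group to the lowest adult group, and the one between hepatectomy polysome RNA with rapamycin and hepatectomy total RNA with DMSO.

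Igfals, which encodes the subunit that keeps IGF-1 and IGFBP-3 in the circulation, was also lower in fetal liver. In DMSO total RNA it read 8.77, 8.72, 9.56 and 9.52 in fetal livers, against 10.65, 10.45 and 10.68 after hepatectomy and 10.66, 10.65 and 9.20 in fasted/refed livers. The fasted/refed DMSO liver 3 lay within the fetal range, and the other adult livers lay above it. The log2 change was -1.45 ± 0.334 for fetal against hepatectomy livers (limma, adjusted p = 0.000747) and -1.03 ± 0.334 for fetal against fasted/refed livers (adjusted p = 0.0117). The second call was lost without fasted/refed DMSO liver 1 (-0.78, adjusted p = 0.0938), without DMSO liver 2 (-0.79, adjusted p = 0.0828) and without the fetal livers 1 and 2 (-0.63, adjusted p = 0.21).

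Among the binding proteins, Igfbp1 was higher and Igfbp4 lower in fetal liver than in either adult model. Igfbp1 had log2 intensities of 12.29, 12.98, 13.63 and 13.66 in fetal DMSO total RNA, against 11.11, 11.79 and 12.36 after hepatectomy and 10.04, 9.24 and 11.06 in fasted/refed livers. The fetal and fasted/refed ranges did not overlap, while the highest hepatectomy liver reached the lowest fetal one. The log2 change was 3.03 ± 0.543, or 8.15-fold, for fetal against fasted/refed livers (limma, adjusted p = 2.40e-05), 1.39 ± 0.543 for fetal against hepatectomy livers (adjusted p = 0.0430) and 1.64 ± 0.580 for hepatectomy against fasted/refed livers (adjusted p = 0.0475). The last 2 lay close to the threshold: both were lost when no filter on low values was used (adjusted p = 0.0532 and 0.0614). Each was also lost without several single livers, with adjusted p of 0.0572 to 0.198 for fetal against hepatectomy livers (without fetal liver 2, 3 or 4 or hepatectomy liver 1 or 2) and of 0.11 to 0.201 for hepatectomy against fasted/refed livers (without hepatectomy liver 2 or 3 or fasted/refed liver 1 or 2). Over all 17 alternatives, fetal against hepatectomy livers passed in 9, with changes of 0.88 to 1.90 (limma, adjusted p 0.0217 to 0.348). Hepatectomy against fasted/refed livers passed in 7 of 15, with changes of 1.20 to 2.11 (limma, adjusted p 0.00395 to 0.201). Igfbp4, a binding protein mainly known to hold IGFs back from their receptor, read 9.85, 9.90, 11.43 and 11.11 in fetal livers, against 12.83, 12.63 and 12.79 after hepatectomy and 12.58, 12.43 and 12.84 in fasted/refed livers, with no overlap between fetal and adult livers. Its log2 change was -2.18 ± 0.314 against hepatectomy livers (limma, adjusted p = 1.05e-06) and -2.04 ± 0.314 against fasted/refed livers (adjusted p = 2.16e-06).

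Igfbp2, a binding protein that is abundant in fetal life and rises in fasting, set the hepatectomy livers apart from the rest. Its DMSO total RNA read 10.88, 10.86, 12.40 and 12.11 in fetal livers, 7.87, 8.01 and 8.22 after hepatectomy, and 11.46, 11.77 and 10.73 in fasted/refed livers. All 12 hepatectomy arrays lay between 7.72 and 8.30 and no array of another model lay below 10.56. The log2 change was 3.53 ± 0.402, or 11.5-fold, for fetal against hepatectomy livers (limma, adjusted p = 1.26e-08), and -3.28 ± 0.430 for hepatectomy against fasted/refed livers (adjusted p = 6.92e-07). Fetal and fasted/refed livers differed by 0.24 ± 0.402, which was not past the threshold (adjusted p = 0.651). Igfbp3, the main IGF carrier in serum and the neighbour of Igfbp1 on chromosome 14 with 0 protein-coding genes between them, did not pass the test between models. It read 10.19, 9.95, 10.55 and 10.28 in fetal livers, 10.39, 9.74 and 9.95 after hepatectomy and 10.39, 10.24 and 9.71 in fasted/refed livers, 3 overlapping ranges.

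The receptor Ghr was ordered hepatectomy, fasted/refed, fetal. In DMSO total RNA its log2 intensities were 11.37, 11.44, 11.60 and 11.59 in fetal livers, 12.80, 12.36 and 12.64 after hepatectomy and 11.82, 12.02 and 12.33 in fasted/refed livers. The 3 ranges were separate. Ghr was lower in fetal than in hepatectomy livers (-1.10 ± 0.128, limma adjusted p = 2.09e-08) and than in fasted/refed livers (-0.56 ± 0.128, adjusted p = 0.000597), and higher in hepatectomy than in fasted/refed livers (0.55 ± 0.137, adjusted p = 0.00521). This last call did not hold in a fit to these 2 groups alone (adjusted p = 0.133) or without fasted/refed liver 1 (adjusted p = 0.0591). Stat5b, which carries the signal from the receptor to the genes above, stayed between 10.87 and 11.93 on all 40 arrays. Its group means spanned 0.49 from lowest to highest, the narrowest span of the 10 members, and its log2 change was -0.09 to -0.01 in the 3 comparisons between models.

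Of the 10 members, 5 passed the test between fetal and fasted/refed livers (1 higher, 4 lower), where 47.1% of all clusters tested did (28.1% higher, the others lower). Between fetal and hepatectomy livers 6 passed (2 higher, 4 lower), against 36.9% of all clusters (19.9% higher, 17.0% lower), and between hepatectomy and fasted/refed livers 3 passed (2 higher, 1 lower), against 17.5% (12.4% higher, 5.03% lower). The 3 comparisons share their DMSO groups. Igfbp4 differed by 0.14 ± 0.335 in the last comparison (limma, adjusted p = 0.826). In a fit to the total RNA arrays alone, where each liver enters once, the same counts were 5, 6 and 2, with Igfbp1 lost between hepatectomy and fasted/refed livers (adjusted p = 0.0537). The labels do not say whether the models were handled together, and model and handling cannot be told apart.

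**Figure D2:**
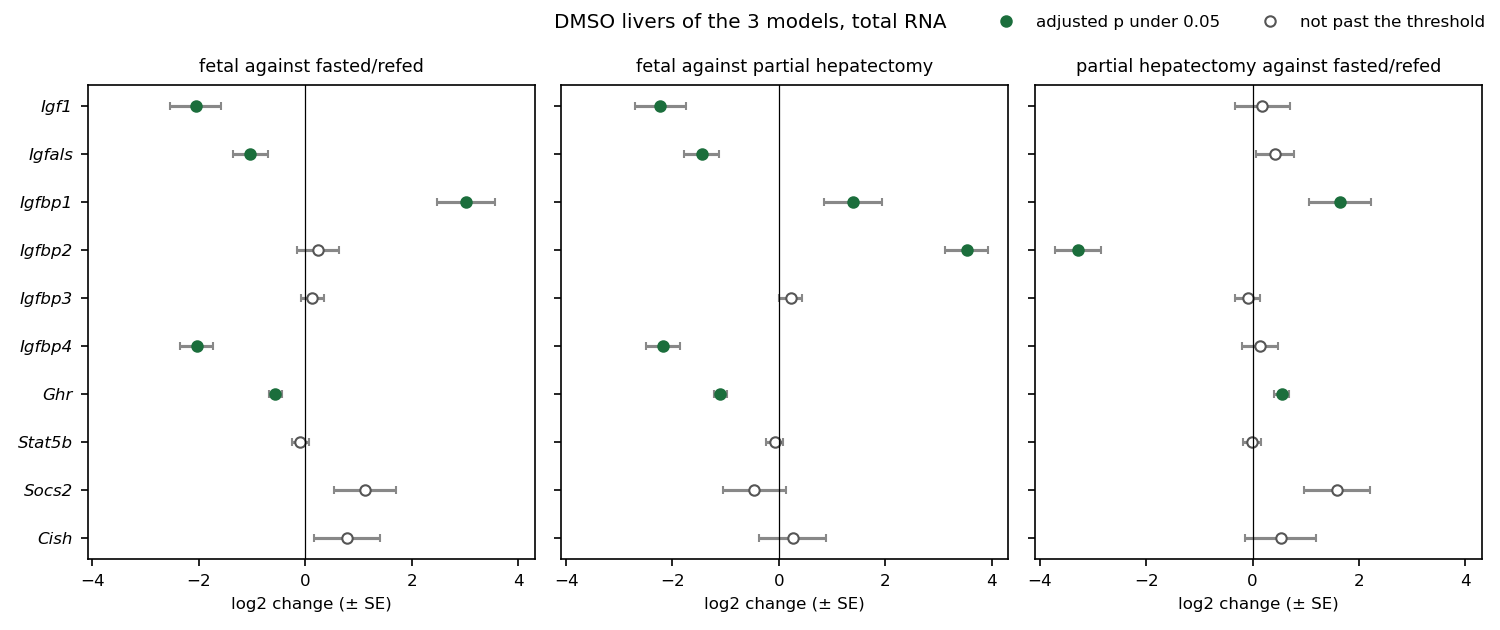
Log2 change ± SE (horizontal axis) of each gene in DMSO total RNA for fetal against fasted/refed, fetal against partial hepatectomy, and partial hepatectomy against fasted/refed livers. Filled points passed an adjusted p of 0.05; Igf1, Igfals, Igfbp4 and Ghr lie left of 0 and Igfbp1 right of 0 in both fetal comparisons, and Igfbp2 changes side between the second and the third panel.

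Socs2 and Cish, both induced by Stat5b, varied most from liver to liver in fasted/refed groups (SD 1.10 to 1.35 and 1.34 to 1.55, n = 3). So did Igfbp1 (0.91 to 1.25). In the other groups the SD of Socs2 and Cish was 0.15 to 0.76. Promoters of the members in RefSeq (GRCr8, 250 bases before to 50 after the transcription start, 9 members matched) were searched on both strands for the STAT5 motif TTCNNNGAA and for CAAAACA, the insulin response sequence known from the Igfbp1 promoter. Socs2 is the member with no entry in that table, and its promoter was not searched. The STAT5 motif was found in 1 of the 9, Cish, with 4 copies that do not overlap. One copy or more was held by 8.87% of 33469 rat promoters of this length, and at least 4 copies by 2 promoters (0.00598%). CAAAACA was found in Igfbp1, Igf1 and Cish, and in 6.28% of all promoters. The forkhead motif GTAAACA (3.78% of promoters) and the HNF1 motif (0.0448%) were found in 0 of the 9. A match describes the sequence and is not evidence of binding. The 250 bases before the start are shown for Cish (chr8:116850719-116850968, plus strand), because of its 4 STAT5 copies, and for Igfbp1 (chr14:86261027-86261276, plus strand), for the insulin response sequence. Capitals mark the matches, TTCNNNGAA at -241, -230, -136 and -119 and CAAAACA at -192 in Cish, and CAAAACA at -121 in Igfbp1 (first base of each, counted from the start).
Cish: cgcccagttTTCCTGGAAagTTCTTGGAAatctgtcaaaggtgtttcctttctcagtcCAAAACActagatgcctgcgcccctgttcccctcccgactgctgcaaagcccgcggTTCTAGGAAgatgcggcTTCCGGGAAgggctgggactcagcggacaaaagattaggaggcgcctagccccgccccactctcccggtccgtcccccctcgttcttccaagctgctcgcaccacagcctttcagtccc
Igfbp1: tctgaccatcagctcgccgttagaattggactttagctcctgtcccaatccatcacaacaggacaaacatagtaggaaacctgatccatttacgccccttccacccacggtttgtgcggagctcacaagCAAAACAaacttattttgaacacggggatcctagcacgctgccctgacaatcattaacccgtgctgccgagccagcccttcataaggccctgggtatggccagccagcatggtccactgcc

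In fasted/refed livers Socs2 and Cish were high in the same 2 animals, 1 from each treatment. Socs2 total RNA read 9.99, 11.99 and 9.68 with rapamycin, against 8.66, 8.56 and 10.94 with DMSO, and Cish read 9.42, 11.99 and 9.22 with rapamycin, against 8.43, 8.38 and 10.94 with DMSO. Rapamycin liver 2 and DMSO liver 3 were the highest of their group in both genes, and so they were in polysome RNA, where Cish read 12.34 and 11.60 in these 2 livers and 8.85 to 10.20 in the other 4. Stat5b itself was highest in the same 2 livers: its polysome RNA read 11.31, 11.93 and 11.30 with rapamycin, against 11.08, 11.10 and 11.75 with DMSO. Igfbp1 and Ghr were also highest of their treatment in these 2 livers, in both fractions. In rapamycin liver 2 and DMSO liver 3, total RNA read 13.40 and 11.06 for Igfbp1 and 12.43 and 12.33 for Ghr. Igfals did not follow them: its total RNA was 10.28, 10.10 and 10.88 with rapamycin, against 10.66, 10.65 and 9.20 with DMSO, so that DMSO liver 3 was the lowest of the 6. Igf1 varied little among these livers, from 13.06 to 13.31 in total RNA. These are the 2 livers that the first principal component of all polysome RNA sets apart, while that of total RNA sets apart DMSO liver 3 alone.

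**Figure D3:**
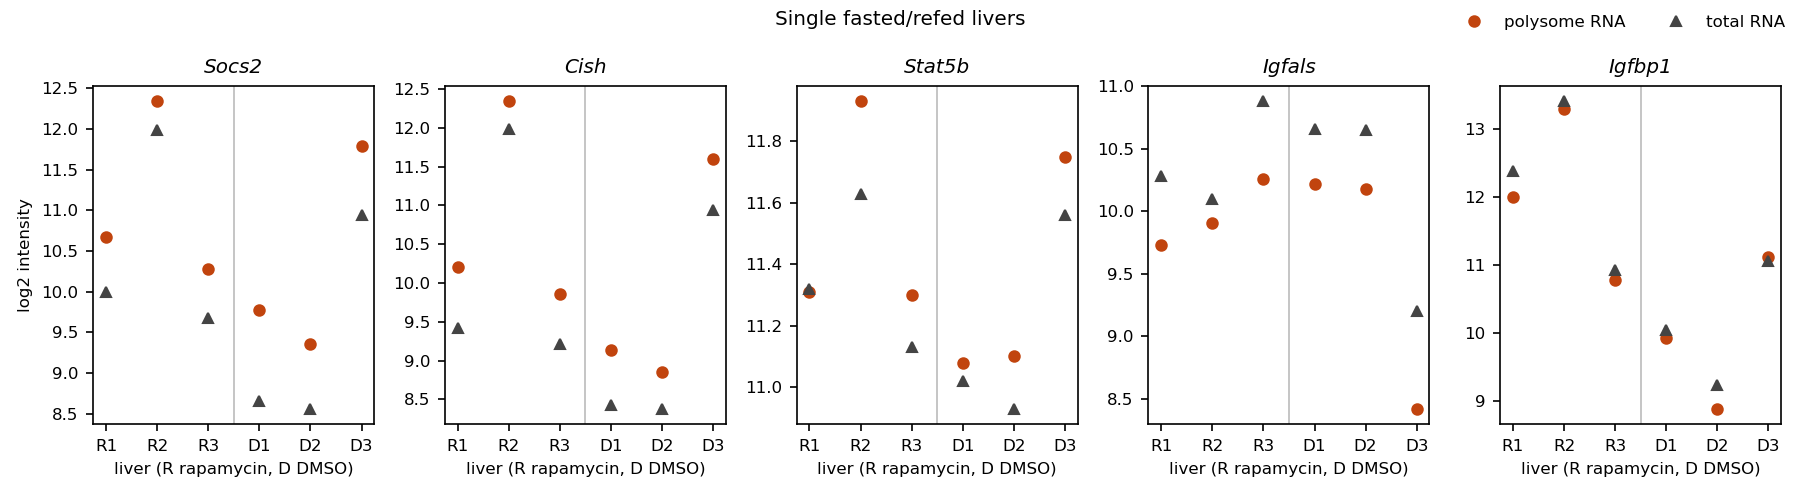
Log2 intensity (vertical axes) of Socs2, Cish, Stat5b, Igfals and Igfbp1 in each fasted/refed liver, rapamycin livers R1 to R3 left of the line and DMSO livers D1 to D3 right of it; circles are polysome RNA and triangles total RNA. R2 and D3 are the highest livers of their treatment for Socs2, Cish, Stat5b and Igfbp1, and D3 is the lowest of all for Igfals.

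Socs2 and Cish did not pass the test between models. They differed by -0.46 ± 0.586 and 0.26 ± 0.625 between fetal and hepatectomy DMSO total RNA (limma, adjusted p = 0.580 and 0.784), by 1.13 ± 0.586 and 0.79 ± 0.625 between fetal and fasted/refed livers (adjusted p = 0.112 and 0.313), and by 1.59 ± 0.626 and 0.53 ± 0.668 between hepatectomy and fasted/refed livers (adjusted p = 0.0772 and 0.633). DMSO liver 3, the highest fasted/refed DMSO liver in both genes, enters the last 2 comparisons. Without it alone, Socs2 differed by 2.37 between hepatectomy and fasted/refed livers (adjusted p = 0.012), and Socs2 and Cish by 1.91 and 1.64 between fetal and fasted/refed livers (0.0113 and 0.0404). Since leaving out the highest liver of a group lowers its mean and its spread, these values describe the weight of that liver and are no test of the difference.

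After hepatectomy Socs2 rose with rapamycin in total RNA, close to the threshold, and Cish, Igfbp1 and Igfals had higher values with rapamycin that did not pass the test. Socs2 polysome RNA read 12.63, 12.35 and 12.97 with rapamycin, against 11.82, 10.78 and 11.73 with DMSO, and its total RNA read 12.21, 12.02 and 12.58 with rapamycin, against 11.58, 10.21 and 11.14 with DMSO. The treatments did not overlap in either fraction. In total RNA Socs2 rose by 1.29 ± 0.337, or 2.45-fold (limma, adjusted p = 0.0488), the single member call, where 5.01% of all clusters tested passed (1.47% higher, 3.54% lower). In polysome RNA the difference was 1.21 ± 0.337 (adjusted p = 0.0547) and 0 members passed in limma, where 6.35% of all clusters did (2.26% higher, 4.10% lower). At an unadjusted p under 0.05 there were 5 members in polysome RNA (Igf1, Igfals, Igfbp1, Socs2 and Cish) and 5 in total RNA (Igfals, Igfbp1, Igfbp4, Socs2 and Cish), beside 2774 and 2567 of the 10860 clusters. The fit takes its spread from the polysome and total arrays together, although these come in pairs from the same livers. In a fit to the total RNA arrays alone, where each liver enters once, the Socs2 call was lost (adjusted p = 0.0751), and 0 members passed. It was also lost with no filter on low values (adjusted p = 0.0561), with no intensity trend in the variance (adjusted p = 0.051), in a fit to all 12 groups (adjusted p = 0.412), and without rapamycin liver 1 (0.128), 2 (0.0606) or 3 (0.17) or DMSO liver 2 (0.175) or 3 (0.118), each an adjusted p.

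Cish, Igfals, Igf1 and Igfbp1 did not pass in either fraction. Cish polysome RNA read 11.56, 10.86 and 11.09 with rapamycin, against 10.28, 10.83 and 9.96 with DMSO, a difference of 0.81 ± 0.290 (limma, adjusted p = 0.107), and 0.88 ± 0.290 in total RNA (adjusted p = 0.0964). Igfals polysome RNA read 10.28, 10.35 and 10.41 with rapamycin, against 10.15, 9.89 and 9.69 with DMSO, a difference of 0.44 ± 0.123 (adjusted p = 0.0552), and its total RNA differed by 0.40 ± 0.123 (adjusted p = 0.0811). The treatments were apart in both fractions for both genes. Igf1, which was already high, differed by 0.19 ± 0.065 in polysome RNA, with 13.50, 13.48 and 13.45 against 13.38, 13.33 and 13.16 for rapamycin against DMSO (limma, adjusted p = 0.0951). Igfbp1 polysome RNA read 13.09, 12.16 and 12.36 with rapamycin, against 10.51, 11.46 and 11.63 with DMSO, 1.34 ± 0.376 higher with groups apart. In total RNA it read 13.25, 12.26 and 12.61 with rapamycin, against 11.11, 11.79 and 12.36 with DMSO, 0.95 ± 0.376 higher with overlap (limma, adjusted p = 0.152). Igfbp3 differed by -0.06 ± 0.263 and -0.02 ± 0.263 in polysome and total RNA.

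In hepatectomy polysome RNA, 6 of the 10 members had all rapamycin livers above all DMSO livers, which held for 11.3% of all clusters tested, and 1 (Igfbp2) had all below, which held for 15.6%. In total RNA the same count was 5 above, against 13.0% of all clusters, and 0 below, against 17.8%. The median member change was 0.19 in polysome and 0.18 in total RNA, beside -0.01 over all clusters in each. Over 14 alternatives in polysome RNA, Igfals passed in 3 (adjusted p 0.0142 to 0.681), Igfbp1 in 2 (0.0432 to 0.285) and Socs2 in 3 (0.0038 to 0.416), with differences of 0.33 to 0.56, 0.99 to 1.55 and 0.88 to 1.40. Other markers moved with treatment in these livers. Dividing cell markers averaged 8.59 to 9.89 with rapamycin, against 10.64 to 11.05 with DMSO, in polysome RNA, and 8.21 to 9.64 against 10.27 to 10.94 in total RNA, and 8 of 9 fell in each fraction. Liver endothelial markers averaged 9.70 to 9.81 with rapamycin, against 9.03 to 9.54 with DMSO, in polysome RNA, and 10.09 to 10.21 against 9.47 to 9.82 in total RNA, and 3 of 7 rose in each fraction. Kupffer cell and macrophage markers averaged 10.15 to 10.28 with rapamycin, against 9.47 to 10.08 with DMSO, in polysome RNA, where 1 of 8 rose (Adgre1, 0.67 ± 0.161), and 10.46 to 10.67 against 10.23 to 10.63 in total RNA, where 0 did. Stellate cell and fibroblast markers averaged 9.06 to 9.26 with rapamycin, against 8.69 to 9.16 with DMSO, in polysome RNA, where 1 of 9 rose (Pdgfrb, 0.50 ± 0.114), and 9.91 to 10.06 against 9.59 to 9.82 in total RNA, where 0 did. Their part in the differences of the members was not tested.

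**Figure D4:**
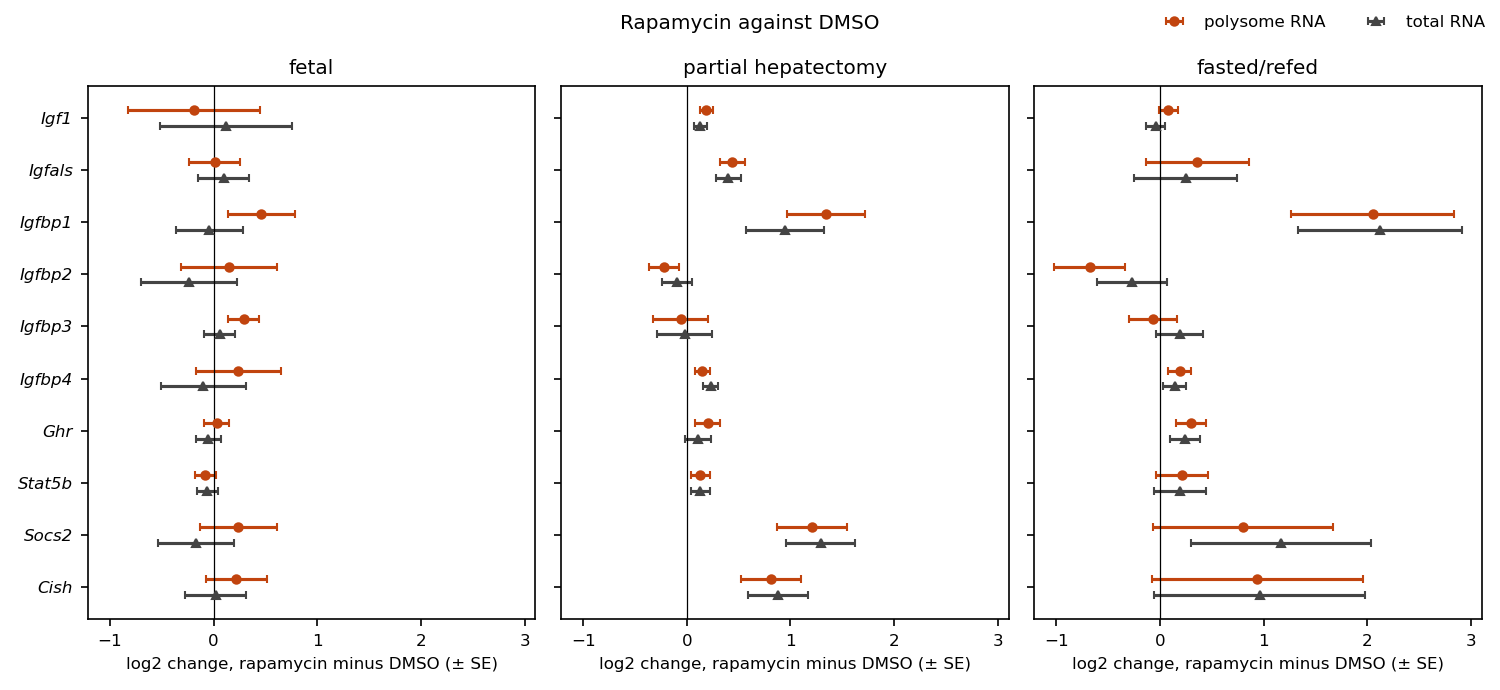
Log2 change, rapamycin minus DMSO, ± SE (horizontal axis) of each gene in the fetal, partial hepatectomy and fasted/refed models, with circles for polysome RNA and triangles for total RNA. Igfbp1, Socs2 and Cish lie right of 0 in both adult models, with SEs of 0.789 to 1.015 in fasted/refed and 0.290 to 0.376 in hepatectomy livers, and the fetal changes lie between -0.24 and 0.46.

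In fasted/refed livers the largest member difference with rapamycin was that of Igfbp1. Its polysome RNA ran between 10.78 and 13.29 with rapamycin, against 8.89 and 11.12 with DMSO, and its total RNA read 12.38, 13.40 and 10.93 with rapamycin, against 10.04, 9.24 and 11.06 with DMSO. Rapamycin livers 1 and 2 lay above every DMSO liver and rapamycin liver 3 lay just below DMSO liver 3, so the treatments overlapped. Rapamycin liver 2 and DMSO liver 3, highest of their treatment in Socs2 and Cish, were so in Igfbp1 too, in both fractions. The difference was 2.05 ± 0.789 in polysome RNA (limma, adjusted p = 0.957) and 2.12 ± 0.789, or 4.36-fold, in total RNA (adjusted p = 0.246, and 0.0411 in a fit to all 12 groups). In neither fraction did a member pass (0 of 10, beside 0% of all clusters), and 1 member, Igfbp1, had an unadjusted p under 0.05 in each, as did 526 and 1832 of all clusters in polysome and total RNA. In polysome RNA 2 members, Igfbp4 and Ghr, had all rapamycin livers above all DMSO livers (8.66% of all clusters), 0 had all below (9.17%), and in total RNA 0 had all above (8.60%) or all below (5.11%). Igfbp2 differed by -0.68 ± 0.339 in polysome RNA, with 11.71, 10.83 and 10.84 for rapamycin against 12.20, 11.80 and 11.42 for DMSO (limma, adjusted p = 0.999). Socs2 differed by 1.17 ± 0.868 and Cish by 0.96 ± 1.015 in total RNA. Igfals differed by 0.36 ± 0.497 in polysome RNA, which turned to -0.23 without DMSO liver 3.

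In fetal livers 0 members passed for rapamycin in either fraction (beside 0% of all clusters), 0 had an unadjusted p under 0.05 in limma, and 0 were apart between treatments (1.74% of all clusters in polysome and 0.967% in total RNA). Igf1 total RNA read 10.91, 10.55, 11.78 and 11.79 with rapamycin, against 10.20, 10.29, 12.09 and 11.98 with DMSO, and its polysome RNA read 9.52, 9.48, 12.13 and 11.05 against 9.82, 9.86, 11.65 and 11.63. In both treatments livers 1 and 2 were low and livers 3 and 4 high. Same-numbered rapamycin and DMSO fetuses deviated together (correlation 0.42 to 0.75 over clusters), and with the number as a block 0 members passed again, while Igfbp3 in polysome RNA (0.29 ± 0.129, limma adjusted p = 0.671) was the 1 member with an unadjusted p under 0.05. The members' differences ran from -0.19 to 0.46 in polysome and from -0.24 to 0.12 in total RNA. The largest difference was that of Igfbp1 in polysome RNA, 0.46 ± 0.323, which turned to -0.11 without livers 1 and 2. In total RNA the ranges of livers 3 and 4 lay above those of livers 1 and 2 for 6 members (Igf1, Igfals, Igfbp2, Igfbp4, Socs2 and Cish), and the 2 pairs were apart in either direction for 35.1% of all clusters.

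Whether the rapamycin effect differs between the 3 models was tested directly. In total RNA 0 members passed (0.424% of all clusters did) and in polysome RNA 0 did (0.0368%). Igfbp1 in total RNA, with differences of -0.04 in fetal, 0.95 in hepatectomy and 2.12 in fasted/refed livers, had the smallest adjusted p of the members there (limma F-test, adjusted p = 0.264). At an unadjusted p under 0.05 there was 1 member in total RNA, beside 1674 of the 10860 clusters, and 0 in polysome RNA, beside 621. The Socs2 call after hepatectomy is thus not shown to differ from the other models.

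Comparing polysome with total RNA within livers, Igfals and Igfbp3 were underrepresented on polysomes and Socs2 and Cish overrepresented. Igfbp3 was lower on polysomes in 20 of 20 livers, by 0.31 to 1.27, and Igfals in 20 of 20 livers, by 0.20 to 1.07. Socs2 was higher on polysomes in 19 of 20 livers, with a mean difference of 0.55 ± 0.29 (SD, n = 20), and Cish in 19 of 20, with 0.48 ± 0.33. How many of all clusters ran as much to 1 side over the 20 livers is not given here. Between the fractions of DMSO livers, 28.0% to 61.0% of all clusters passed in the 3 models with the liver as a block, so such counts are not shown to be particular to these members. Ghr was lower in 18 of 20 livers (mean -0.12 ± 0.15) and Igf1 in 17 of 20 (mean -0.25 ± 0.41). For Igf1 the 2 largest deficits, -1.39 and -1.06, were those of fetal rapamycin livers 1 and 2, and the adult livers lay between -0.20 and 0.15. Array normalisation removes any difference in total signal between fractions, so these are shares relative to other mRNAs. Markers of other liver cells were also lower on polysomes. In DMSO livers, stellate cell and fibroblast markers averaged 8.80 to 9.26 on polysomes, against 9.58 to 10.06 in total RNA, in fetal livers, 8.69 to 9.16 against 9.59 to 9.82 after hepatectomy, and 9.04 to 9.32 against 9.76 to 10.01 in fasted/refed livers, and 7, 6 and 5 of 9 were lower in the 3 models. Endothelial markers were lower in 3, 4 and 3 of 7, hepatocyte markers in 0, 4 and 3 of 8 and Kupffer cell markers in 1, 5 and 2 of 8. These marker counts come from the fits without the liver block, where 6.38%, 15.0% and 5.14% of all clusters were lower. Their part in the values of Igfbp3 and Igfals was not tested.

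**Figure D5:**
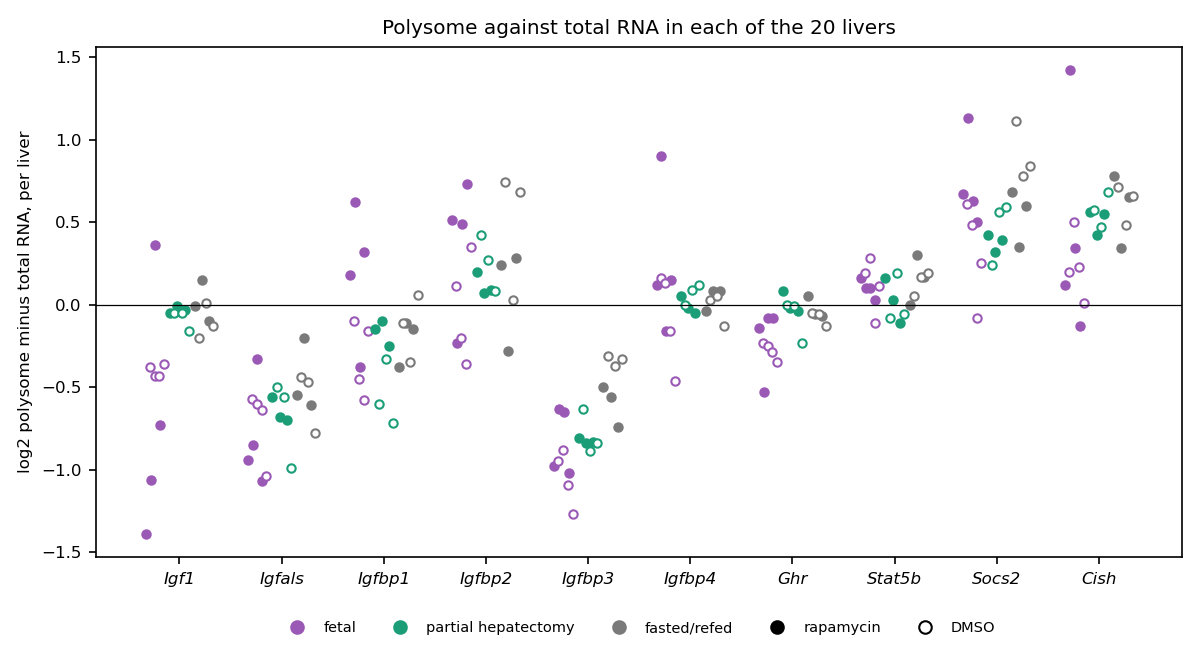
Polysome minus total log2 intensity (vertical axis) of each gene in each of the 20 livers, purple fetal, green partial hepatectomy and grey fasted/refed, filled for rapamycin and open for DMSO. All 20 points lie below 0 for Igfals and Igfbp3, and 19 of 20 lie above 0 for Socs2 and for Cish.

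In DMSO livers, without regard to which arrays came from the same liver, Igfbp3 was lower on polysomes in fetal liver (9.20 ± 0.21 on polysomes, against 10.24 ± 0.25 in total RNA, SD, n = 4 each, a log2 change of -1.05 ± 0.149, limma adjusted p = 0.000508). After hepatectomy both Igfbp3 (-0.79 ± 0.263, adjusted p = 0.0294) and Igfals (-0.68 ± 0.123, adjusted p = 0.000934) were lower. These were 1 of 10 members lower in fetal livers, where 14.5% of all clusters passed (8.10% higher, 6.38% lower), and 2 lower after hepatectomy, where 43.8% passed (28.8% higher, 15.0% lower). In fasted/refed livers 0 members passed in limma or had an unadjusted p under 0.05, where 24.7% of all clusters passed (19.5% higher, 5.14% lower). The Igfbp3 call after hepatectomy was lost without polysome liver 2 (adjusted p = 0.115) or 3 (0.0921) and without total liver 1 (0.112) or 3 (0.0546). Polysome and total arrays of the same liver deviated together (correlation 0.33 to 0.82, in fetal livers 0.33 to 0.69). Different fetuses of the same number correlated at 0.42 to 0.75, so in fetuses this does not by itself show a shared liver. The liver was also fitted as a block. Then 2 members passed in fetal livers (28.0% of all clusters), Igfbp3 and Igfals (-0.71 ± 0.130, limma adjusted p = 0.00279). After hepatectomy 6 passed (61.0% of all clusters): Igfals, Igfbp3 and Igfbp1 (-0.55 ± 0.077) lower and Igfbp2 (0.26 ± 0.090), Socs2 (0.46 ± 0.076) and Cish (0.57 ± 0.076) higher. In fasted/refed livers 5 passed (42.5%): Igfals (-0.56 ± 0.129) and Igfbp3 (-0.34 ± 0.109) lower and Igfbp2 (0.48 ± 0.161), Socs2 (0.91 ± 0.121) and Cish (0.61 ± 0.123) higher. These counts stand near the share of all clusters that passed. Whether rapamycin moved the polysome share of a member was tested as an interaction: 0 members passed in each model (0% of all clusters), with and without the liver block. The smallest member p was that of Igfbp1 after hepatectomy with the block (0.38 ± 0.109, limma adjusted p = 0.492). In fetal livers Igfbp1 (0.51 ± 0.190) and Socs2 (0.42 ± 0.190) also had an unadjusted limma p under 0.05 with the block. How many of all clusters did so with the block is not given here. Without the block 0 members had an unadjusted p under 0.05, beside 45, 158 and 266 clusters in fetal, hepatectomy and fasted/refed livers.

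Other genes of the pathway set these values in context, from lists chosen with earlier results of these data known. Of 16 measured IGF ligands, receptors and insulin pathway genes, 11 passed between fetal and fasted/refed livers (7 higher, 4 lower), where 47.1% of all clusters did. Igf2, the fetal IGF, averaged 13.75 ± 0.25 (SD, n = 4) in fetal DMSO total RNA, against 7.26 ± 0.17 after hepatectomy and 7.33 ± 0.09 in fasted/refed livers (SD, n = 3 each). That is a log2 change of 6.42 ± 0.141 against fasted/refed livers (limma, adjusted p = 3.08e-27). Grb10, an adaptor that binds and inhibits the insulin and IGF-1 receptors, was higher by 5.59 ± 0.122 (adjusted p = 3.07e-27). Igf2r, the receptor that clears IGF-2, was higher by 1.23 ± 0.211 (limma, adjusted p = 1.22e-05). Igf2r was lower on polysomes than in total RNA by -1.22 ± 0.107 after hepatectomy and by -1.16 ± 0.321 in fasted/refed livers with DMSO. So were Igf1r, the IGF-1 receptor (-0.54 ± 0.093 and -0.59 ± 0.170), and Insr, the insulin receptor (-0.66 ± 0.135 and -0.75 ± 0.175). Others of this list were higher on polysomes, Akt1 after hepatectomy (0.38 ± 0.095) and Grb14 in fasted/refed livers (0.68 ± 0.204). Of all clusters, 43.8% passed after hepatectomy and 24.7% in fasted/refed livers. In fetal livers Insr was lower (-0.59 ± 0.173), and Grb14 (0.60 ± 0.184) and Akt1 (0.47 ± 0.127) were higher.

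Of 6 tested growth hormone dependent liver genes, 4 were lower in fetal than in fasted/refed livers and 0 higher (47.1% of all clusters passed), among them the sex-dependent cytochromes Cyp2c13 (-7.64 ± 0.276), Cyp2c11 (-6.20 ± 0.347) and Cyp2c12 (-4.58 ± 0.655). With rapamycin after hepatectomy 1 of the 6 rose, Onecut1, a liver transcription factor induced by growth hormone (0.85 ± 0.142 in polysome RNA, limma adjusted p = 0.0127, and 0.84 ± 0.142 in total RNA, adjusted p = 0.0199). Of all clusters, 2.26% rose in polysome RNA and 1.47% in total RNA. Of 13 tested partners of growth hormone receptor signalling, 4 passed between fetal and fasted/refed livers, 1 higher and 3 lower, a smaller share than the 47.1% of all clusters, including the prolactin receptor Prlr (-1.90 ± 0.480) and the repressor Bcl6 (-1.54 ± 0.467). With rapamycin 0 of the 13 passed in any model or fraction. Of 8 insulin-repressed FoxO1 targets, 3 were higher in hepatectomy than in fasted/refed livers, where 12.4% of all clusters were: Angptl4, an inhibitor of lipoprotein lipase (2.95 ± 0.863), Pck1, an enzyme of gluconeogenesis (2.66 ± 0.787), and Pdk4, which restrains pyruvate oxidation (1.64 ± 0.521). Between fetal and fasted/refed livers, where 47.1% of all clusters passed, Pck1 was lower (-2.10 ± 0.736, limma adjusted p = 0.0193) and Sesn1 higher (2.01 ± 0.328, adjusted p = 5.41e-06). With rapamycin 0 of these 8 passed after hepatectomy. Of 6 other binding proteins and IGFBP proteases, Igfbp7 rose with rapamycin in hepatectomy polysome RNA (0.42 ± 0.099, limma adjusted p = 0.0337). Htra1, a secreted serine protease, was lower in fetal than in fasted/refed livers (-3.18 ± 0.383), a comparison that 47.1% of all clusters passed. Igfbp5 (0.78 ± 0.205), Igfbp7 (0.43 ± 0.122) and Ctsd (0.43 ± 0.140) of the same list passed there in the opposite direction, higher in fetal livers.

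The genes whose 12 group means ran most like those of Igf1, of 10202 compared, were Inhbc, Tmem176a and Cyp2c12 (Pearson r = 0.995 each), Cd164 (0.994) and Nrg1 (0.993). For Igfbp1 they were Gadd45a (0.944), Zdhhc4 (0.932), Pigp (0.924), Pim1 (0.919) and Rps6ka5 (0.913). For Socs2 they were Homez (0.942), Itgb5 (0.934), Tm7sf2 (0.932), Fgr (0.928) and Pdk4 (0.912). The 12 points share livers between fractions and fall into 3 models, so these values describe likeness over models for Igf1, whose fetal means lie apart, more than within them.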

How the data were processed

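The values used were the authors' deposited array intensities on a linear scale, 1 per transcript cluster and array, normalised by RMA per the submitters' processing notes (version, settings, joint normalisation and annotation build: not given in the sources used here). They ran from 3.77 to 28447 and were log2-transformed with no pseudocount. Gene symbols came from the platform annotation, and a member was the cluster with exactly that 1 symbol and the highest mean. Clusters with a symbol and a mean log2 of at least 6.70 (the 30th percentile) were tested with limma 3.58.1 in R 4.3.3 (group means, moderated variances that follow intensity, two-sided tests, Benjamini-Hochberg over 10860 clusters, threshold 0.05). Fits within a model used its arrays (8 residual degrees of freedom in adults, 12 in fetuses) and fits across models all 40 (28); both hold polysome and total arrays of the same livers, which the fits treat as independent, so a fit to the arrays of 1 fraction was added. The members, gene lists and tests were chosen with earlier results of these data known. All 10 members were tested in every comparison and could be named; pathway genes were named by up to 4 largest changes past the threshold, and like genes by Pearson correlation over 12 group means. Pairing was checked by correlating deviations from group means. The 2 fractions of 1 liver deviated together (0.33 to 0.82), as did same-numbered fetuses (0.42 to 0.75), but not same-numbered hepatectomy (-0.07 to 0.28) or fasted/refed livers (-0.62 to 0.39). The fit was tested on simulated data. Alternatives were other filters, scalings, pseudocounts, blocks, sample sets and single livers left out. Precision is limited by how many arrays a group has. Promoter sequences are RefSeq's (GRCr8).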

Additional observations from a re-analysis of the deposited data

How the results depend on the processing

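The number of the 10 members that passed the test moved as follows. For rapamycin after hepatectomy, polysome RNA gave 3 with a filter at the 50th percentile and 3 with the replicate number as a block, against 0, and total RNA gave 0 with no filter, 0 without an intensity trend, 0 in a fit to all 12 groups, 0 in a fit to the total RNA arrays alone and 2 with the replicate block, against 1. These numbers did not pair hepatectomy or fasted/refed livers, so the blocked counts are no stronger evidence. In fetal livers, where they did, the block left 0. Rapamycin in fasted/refed total RNA gave 1 in a fit to all 12 groups. For polysome against total RNA the liver block gave 5 in fasted/refed livers, against 0 without it, 6 after hepatectomy, against 2, and 2 in fetal livers, against 1. The fit to all 12 groups gave 1 after hepatectomy, cyclic loess scaling gave 2 in fetal livers, and leaving out fetal livers 1 and 2, or 3 and 4, gave 2 each. Without rapamycin liver 2 and DMSO liver 3 of the fasted/refed model there was 1, Socs2. Hepatectomy against fasted/refed livers gave 1 in a fit to these 2 groups and 5 without those 2 livers, against 3. Those livers hold the highest Socs2 and Cish of their groups and were left out after the data were seen. The 2 added calls are therefore no test of a difference. The causes were not tested, except that the stricter filter tests fewer clusters.

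With single arrays left out, the count ran from 0 to 3 for rapamycin after hepatectomy in polysome RNA (3 without DMSO 1), where calls over all clusters ran from 57 to 1687, 0 to 1 in total RNA (4 to 847 over all clusters), 1 to 3 for polysome against total RNA after hepatectomy, 1 to 2 in fetal livers, 1 to 4 for hepatectomy against fasted/refed, 4 to 7 for fetal against fasted/refed and 5 to 6 for fetal against hepatectomy livers, and it was 0 in every fit of the other comparisons. Of 1589 alternative values of 80 single results with a change of at least 0.3, 1503 kept direction and side of the threshold, 36 no longer passed, 34 newly passed and 16 turned direction. None of the results that turned had passed. Over single arrays left out, Igfals with rapamycin in fasted/refed polysome RNA ran from -0.23 to 0.66, the Socs2 fasted/refed difference between fractions in the rapamycin effect from -1.15 to 0.37, and that of Igf1 in fetal livers from -0.84 to 0.05. Igfals and Cish on fasted/refed polysomes ran from -1.05 to 0.03 and from -0.25 to 1.46, and Igfals between hepatectomy and fasted/refed livers from -0.06 to 0.67. Without both of the fasted/refed livers that stood apart, Igfals with rapamycin in polysome RNA was -0.20 and between the adult models -0.06. Without fetal livers 1 and 2, Igfbp1 with rapamycin in polysome RNA was -0.11, the Igf1 difference between fractions 0.21 and Socs2 between fetal and hepatectomy livers 0.20. The fits without pairs of livers or to 1 fraction were chosen after the data were seen. Each member has 1 cluster, so averaging clusters gave no other value, and signal over background was not among the values used.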
